A study of Mus musculus with 6 samples.

Results

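The Polycomb repressive complex genes described here are 10 genes chosen by symbol, Ezh1, Ezh2, Eed, Suz12, Jarid2, Mtf2, Rnf2, Bmi1, Cbx2 and Cbx7, out of 25701 genes listed in an RNA-seq table. All 10 were listed and all 10 passed the filter on low values. The libraries came from cardiac progenitor (CP) cells, an intermediate stage on the way from mouse embryonic stem cells (ESCs) to cardiomyocytes. The 46C-Ctrl and Zhx1-KO groups had 3 libraries each. 46C is a mouse ESC line that carries a green fluorescent reporter in the Sox1 gene, and both groups share it. 46C-Ctrl is the study's control, and whether it went through the same editing steps is not stated. Zhx1-KO is an ESC line of the same background. By the study's account, its gene for the zinc finger and homeobox protein Zhx1 was targeted for deletion with CRISPR/Cas9. The number of knockout clones sequenced is not stated. The comparison asks which genes depend on Zhx1 at the CP stage. PolyA RNA was sequenced from both groups, with no treatment named for either. The labels do not say whether the libraries of a group are separate cultures, and the p-values below reflect library-to-library spread, and that spread may be technical.

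Polycomb proteins keep developmental regulators silent in cells that do not use them. PRC2 (Polycomb repressive complex 2) methylates lysine 27 of histone H3 through its catalytic subunit, Ezh1 or Ezh2, which works only when bound to Eed and Suz12. PRC1 ubiquitinates histone H2A through Rnf2 (Ring1B) or Ring1, and its chromobox proteins read the methyl mark left by PRC2. In ESCs the complexes sit on CpG-rich promoters of lineage regulators, and subunits are exchanged as cells differentiate.

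Of the 10 genes, 4 were higher in Zhx1-KO (Ezh1, Suz12, Jarid2 and Cbx2), 3 were lower (Ezh2, Bmi1 and Cbx7) and 3 did not pass the test (Eed, Mtf2 and Rnf2). The test was limma on log2(normalized count + 1), with adjustment over all 15372 genes that had a mean of at least 10, and an adjusted p under 0.05 counted as passed. Calls were common in this comparison: 52% of all genes tested passed, 25.6% as higher and 26.4% as lower. The median log2 fold change was 0.05 over the 10 genes and 0.01 over all genes tested. In 9 of the 10 genes the 3 Zhx1-KO libraries and the 3 46C-Ctrl libraries did not overlap, as in 60.8% of all genes tested. In exact permutation tests (two-sided) p was 0.1 for each of these 9 genes and 0.2 for Mtf2, and 3 libraries against 3 cannot give a p under 0.1. In bulk RNA, fewer cells that express a gene and less RNA of it per cell cannot be told apart. The changes of 8 genes were moderate, with fitted log2 fold changes from -0.61 (Bmi1) to 0.48 (Suz12), while Ezh1 and Eed each had a library at 0 or 1 read.

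**Figure D1:**
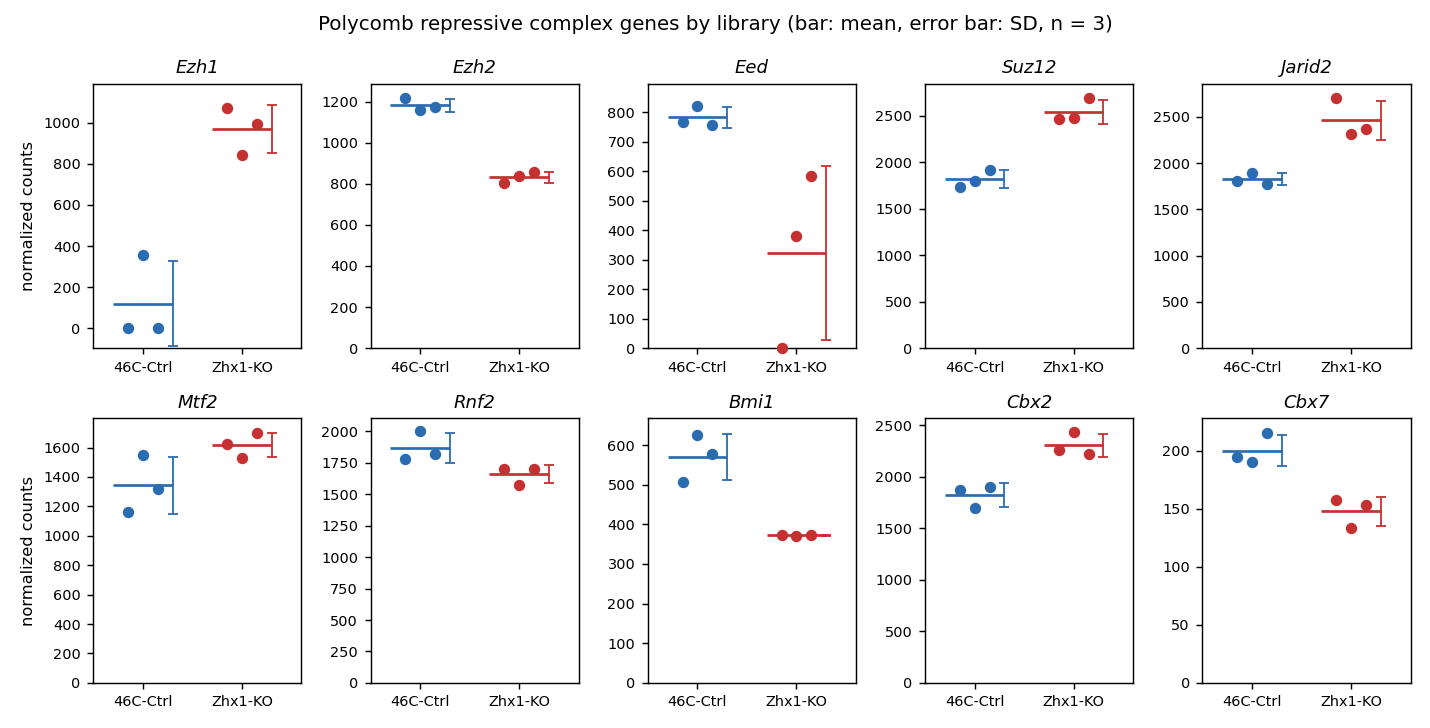
Normalized counts (vertical axes, 1 scale per gene) of the 10 Polycomb genes in 46C-Ctrl (blue) and Zhx1-KO (red). Points are libraries, replicates 1 to 3 from left to right, horizontal bars are means and error bars SD (n = 3). Ezh1 was near 0 in 46C-Ctrl replicates 1 and 3 and Eed near 0 in Zhx1-KO replicate 1, while the other 8 genes stayed well above 0 in all 6 libraries.

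Zhx1 itself was counted at 460, 181 and 457 in the controls and at 225, 325 and 308 in Zhx1-KO (normalized counts), with a log2 fold change of -0.25 ± 0.35 (SE; limma, adjusted p = 0.579). All 3 libraries labelled Zhx1-KO thus held Zhx1 reads, and the groups overlapped. Zhx1 passed in 1 of 18 settings, without 46C-Ctrl replicate 2, the low control (-0.70, adjusted p = 0.0121), whereas the value was -0.03 without 46C-Ctrl replicate 1 (adjusted p = 0.958) or 3 (0.95) and -0.09 without Zhx1-KO replicate 1 (0.871). Taken alone, these values do not show the deletion and go against the label to that extent. The study reports checks of the knockout line by PCR, at the mRNA level and at the protein level. A count per gene does not say which part of Zhx1 the reads cover, so it cannot settle the deletion. Zhx1-KO therefore stands throughout for the libraries labelled Zhx1-KO, and every direction given here is between the labelled groups. Depth was even, from 13769967 to 15940874 reads in genes per library. CP genes were set beside the CP label. Their summed normalized counts were 7770 to 8527 in 46C-Ctrl and 1081 to 1159 in Zhx1-KO, with 5 of 6 genes lower and none at 0. Most of the 46C-Ctrl sums was Hand1. No other stage was compared, so these sums cannot settle the label. Hand1, a heart field transcription factor, was at 5774 ± 329 in 46C-Ctrl and 198 ± 28.1 in Zhx1-KO (SD, n = 3), and Hand2, its partner, at 1115 ± 63.4 and 195 ± 36.3. Of 6 cardiomyocyte genes 4 were higher and 1 lower, with sums of 5616 to 6624 in 46C-Ctrl and 8539 to 9336 in Zhx1-KO.

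The promoters of the genes are shown because the genes moved in different directions. Polycomb complexes are known for CpG-rich promoters of lineage regulators, whereas these windows belong to genes of the complexes themselves. RefSeq promoter windows of GRCm38.p6 were found for 9 of the 10 genes, all but Cbx2, and the 250 bases before each start were read. All 9 had a ratio of observed to expected CG above the median of 32817 such windows (0.373), from 0.652 (Eed) to 1.1 (Suz12). The number of CG dinucleotides, searched as the letters CG, which read the same on both strands, was 12 to 37 against a median of 6. The 3 windows that follow are of a gene that rose, a gene that fell and a gene whose Zhx1-KO libraries disagreed, each on the strand of its gene with CG in capitals.
Suz12, chr11:79992856-79993105, plus strand, 37 CG: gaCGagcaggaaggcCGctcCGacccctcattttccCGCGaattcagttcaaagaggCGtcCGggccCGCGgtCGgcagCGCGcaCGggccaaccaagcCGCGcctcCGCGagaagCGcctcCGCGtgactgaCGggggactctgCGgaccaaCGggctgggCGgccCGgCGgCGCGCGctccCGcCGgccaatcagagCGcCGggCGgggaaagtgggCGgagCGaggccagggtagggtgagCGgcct
Ezh2, chr6:47595031-47595280, minus strand, 23 CG: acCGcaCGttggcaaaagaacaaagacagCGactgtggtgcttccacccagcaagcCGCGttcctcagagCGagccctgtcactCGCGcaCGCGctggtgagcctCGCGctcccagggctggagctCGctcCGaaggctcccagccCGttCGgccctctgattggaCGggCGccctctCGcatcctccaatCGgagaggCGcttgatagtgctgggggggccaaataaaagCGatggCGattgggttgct
Eed, chr7:89980977-89981226, minus strand, 12 CG: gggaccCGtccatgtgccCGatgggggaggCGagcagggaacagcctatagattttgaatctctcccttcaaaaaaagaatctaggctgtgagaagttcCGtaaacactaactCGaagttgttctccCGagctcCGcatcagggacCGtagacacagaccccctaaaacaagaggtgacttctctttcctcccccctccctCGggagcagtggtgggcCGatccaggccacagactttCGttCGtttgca
Of all windows, 97.8% held fewer CG than that of Suz12, 86.7% fewer than that of Ezh2 and 66.5% fewer than that of Eed. The gene that rose and the gene that fell therefore both had windows rich in CG. For Ezh2 the RefSeq start lies 311 bases from the outermost start in GENCODE, for Eed 7 bases and for Suz12 at the same base. Among the other windows, that of Jarid2 lies 1300 bases and that of Cbx7 38473 bases from the outermost start. The windows of Ezh2, Jarid2 and Cbx7 thus lie inside the genes as GENCODE draws them. CG letters are a description of sequence and measure neither methylation nor binding. The 32817 windows were not matched to the members for expression.

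Ezh2, the main methyltransferase of dividing cells, had 1217, 1157 and 1173 normalized counts in 46C-Ctrl and 803, 838 and 856 in Zhx1-KO. All 3 Zhx1-KO libraries lay below all 3 controls, at 832 ± 26.6 against 1182 ± 31.0 (SD, n = 3). The log2 fold change was -0.51 ± 0.06 (SE; limma, adjusted p = 0.000217), and the control mean was 1.42 times the Zhx1-KO mean. Ezh2 lies on the minus strand of chromosome 6, from 47530139 to 47595341 (GENCODE, GRCm38, as are all gene positions given here).

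Ezh1, the second catalytic subunit, which is better known from cells that have stopped dividing, had 0.975, 358 and 0 normalized counts in 46C-Ctrl and 1072, 844 and 991 in Zhx1-KO. As whole reads these are 1, 346 and 0 in 46C-Ctrl and 1064, 835 and 1126 in Zhx1-KO. The Zhx1-KO libraries lay close together while the controls did not, since 46C-Ctrl replicate 2 held most of the reads and replicates 1 and 3 almost none. The means were 120 ± 207 in 46C-Ctrl and 969 ± 116 in Zhx1-KO (SD, n = 3), and the fitted log2 fold change was 6.76 ± 1.94 (SE; limma, adjusted p = 0.0208). That size depends on the 2 low controls and on the added 1. In 46C-Ctrl replicate 3 the exact 0, which may be a failed estimate, allows up to 3 reads, or 3.16 normalized counts. Each Zhx1-KO library was also above 46C-Ctrl replicate 2. Without that control the log2 fold change was 9.42 (adjusted p = 5.6e-06), and leaving out any other single library ended the call, with an adjusted p from 0.0534 without Zhx1-KO replicate 2 to 0.0686 without 46C-Ctrl replicate 1 (0.0602 without 46C-Ctrl replicate 3, 0.055 without Zhx1-KO replicate 1 and 0.0571 without Zhx1-KO replicate 3). On whole reads edgeR gave 3.04 with an adjusted p of 0.0454, edgeR with robust settings 0.154 and DESeq2 0.295. The Ezh1 call is therefore not firm, whereas that of Ezh2 held in all 18 settings. Ezh1 spans 101191115 to 101226463 on the minus strand of chromosome 11.

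Eed, the subunit that binds the methyl mark and stimulates the enzyme, showed a gap on the other side. It had 768, 821 and 757 normalized counts in 46C-Ctrl and 1.01, 380 and 583 in Zhx1-KO, where the reads were 1, 376 and 662. All Zhx1-KO libraries were below all controls, but they spread from 1 read to 662. The means were 782 ± 34.2 and 321 ± 295 (SD, n = 3), and the log2 fold change was -3.36 ± 1.90 (SE; limma, adjusted p = 0.178), so Eed did not pass. Without Zhx1-KO replicate 1 it was -0.73, with an adjusted p of 0.0137. Eed spans 89954654 to 89980983 on the minus strand of chromosome 7. Such gaps were rare: 40 genes in 46C-Ctrl and 30 in Zhx1-KO had 0 to 3 reads in 1 library and at least 100 normalized counts in another of the same group. Within the 62 tested genes of the Polycomb pathway lists, Ezh1 and Eed were the gaps. The single reads of Eed in Zhx1-KO replicate 1 and of Ezh1 in 46C-Ctrl replicate 1 are not exact zeros but may, like the 0 of Ezh1, be failed estimates.

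Suz12, the scaffold that holds PRC2 together, had 1731, 1796 and 1920 normalized counts in 46C-Ctrl and 2464, 2473 and 2687 in Zhx1-KO. Every Zhx1-KO library was higher than every control, at 2541 ± 126 against 1816 ± 96.2 (SD, n = 3), 1.4 times the control mean. Its log2 fold change was 0.48 ± 0.06 (SE; limma, adjusted p = 0.000395). Suz12 lies on the plus strand of chromosome 11, from 79993106 to 80034123. The core subunits therefore did not move together: 1 of the 4 members of the core fell, 2 rose and Eed did not pass. Of the 2 rises, the call of Ezh1 was not firm. That of Suz12 was about as large as the median log2 fold change of chromosome 11 (0.42). The histone-binding subunits, which PRC2 shares with other chromatin complexes, also differed in sign. Rbbp7 was lower at 6181 ± 322 against 9359 ± 473 in 46C-Ctrl (log2 fold change -0.60, adjusted p = 0.000101) and Rbbp4 higher at 7336 ± 141 against 6445 ± 122 (0.19, adjusted p = 0.00642). Rbbp4 and Rbbp7 are close copies of each other, so a split of shared reads between them is uncertain.

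Jarid2 and Mtf2 are accessory subunits that bring PRC2 to chromatin in alternative assemblies. Jarid2 had 1810, 1899 and 1776 normalized counts in 46C-Ctrl and 2703, 2316 and 2371 in Zhx1-KO. All 3 Zhx1-KO libraries were above the controls, at 2463 ± 209 against 1828 ± 63.3 (SD, n = 3), with a log2 fold change of 0.43 ± 0.07 (SE; limma, adjusted p = 0.00142). Jarid2 lies on chromosome 13, plus strand, from 44729474 to 44921643. Mtf2, which binds unmethylated CG-rich DNA, was counted at 1163, 1547 and 1319 in the controls and at 1627, 1528 and 1696 in Zhx1-KO. It was the 1 gene of the 10 whose groups overlapped, through 46C-Ctrl replicate 2 and Zhx1-KO replicate 2. The means were 1343 ± 193 and 1617 ± 84.5, and the log2 fold change of 0.28 ± 0.10 (SE; limma, adjusted p = 0.0534) did not pass, while it was 0.38 without 46C-Ctrl replicate 2 (adjusted p = 0.00606) and 0.18 without 46C-Ctrl replicate 1 (0.142). Over 18 settings Mtf2 passed in 9. Mtf2 lies on chromosome 5, plus strand, from 108065674 to 108109004. Of the 8 tested accessory genes 2 were higher, 1 lower and 5 did not pass. Lcor, whose locus also encodes a PRC2-binding isoform, was higher (150.4 ± 21.6 in 46C-Ctrl, 211 ± 24.6 in Zhx1-KO, SD, n = 3; adjusted p = 0.0288), and Phf19, a relative of Mtf2, was lower (102 ± 25 and 53.7 ± 10; adjusted p = 0.017).

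In PRC1, Rnf2 carries the ubiquitin ligase activity. It had 1783, 2002 and 1823 normalized counts in 46C-Ctrl and 1701, 1577 and 1701 in Zhx1-KO. The 3 Zhx1-KO libraries lay just below the controls, at 1660 ± 72.0 against 1869 ± 117 (SD, n = 3). The log2 fold change of -0.17 ± 0.06 (SE; limma, adjusted p = 0.0537) did not pass, and in 17 of 18 settings Rnf2 did not pass. Rnf2 lies on the minus strand of chromosome 1, from 151458004 to 151500955. Ring1, its paralog, had 297 ± 26.0 and 269 ± 35.8 and did not pass either (adjusted p = 0.356).

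Bmi1 (Pcgf4), the ring finger partner of Rnf2 in the canonical complex, had 507, 624 and 578 normalized counts in 46C-Ctrl and 373, 371 and 373 in Zhx1-KO. The Zhx1-KO libraries were almost identical and all below the controls. The means were 569.8 ± 59.0 and 372 ± 1.11 (SD, n = 3), with a log2 fold change of -0.61 ± 0.09 (SE; limma, adjusted p = 0.000986), the larger fall of the pair (with Ezh2) that was called lower in all 18 settings. Bmi1 lies on the plus strand of chromosome 2, from 18677018 to 18686629. In the list of 8 RING and PCGF genes 4 were lower, all of them PCGF genes, and 4 did not pass. Pcgf5 fell from 341 ± 41.0 to 155 ± 16.7 (log2 fold change -1.13, adjusted p = 0.000252), Pcgf3 from 2153 ± 79.7 to 1454 ± 63.5 (-0.57, adjusted p = 0.00012) and Pcgf6 from 629 ± 20.4 to 467 ± 24.1 (-0.43, adjusted p = 0.0017). These 3 belong to variant forms of PRC1, which lack the Polycomb chromobox proteins such as Cbx2 and Cbx7. Pcgf2, the closest relative of Bmi1, did not pass (533 ± 51.3 and 579 ± 40, adjusted p = 0.313).

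The chromobox proteins Cbx2 and Cbx7 carry the chromodomain that binds methylated histone H3, and they are alternative parts of canonical PRC1. Cbx2 had 1871, 1693 and 1903 normalized counts in 46C-Ctrl and 2263, 2429 and 2221 in Zhx1-KO. All Zhx1-KO libraries were higher, at 2304 ± 110 against 1823 ± 114 (SD, n = 3), with a log2 fold change of 0.34 ± 0.06 (SE; limma, adjusted p = 0.00313). Cbx2 lies on the plus strand of chromosome 11, from 119022962 to 119031270.

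Cbx7, the chromobox protein typical of undifferentiated ESCs, went the other way. It had 195, 190.5 and 215 normalized counts in 46C-Ctrl and 157, 133 and 153 in Zhx1-KO, and all Zhx1-KO libraries were lower. The means were 200.2 ± 13.1 and 148 ± 12.7 (SD, n = 3), and the log2 fold change was -0.44 ± 0.12 (SE; limma, adjusted p = 0.018). This call ended without 46C-Ctrl replicate 3 (adjusted p = 0.0618) or without Zhx1-KO replicate 2 (0.0585). Cbx7 lies on the minus strand of chromosome 15, from 79915807 to 79971119. In the list of 10 canonical PRC1 genes, 2 were higher, 4 lower and 4 did not pass. Phc1 and Phc2, polyhomeotic subunits that join PRC1 complexes to each other, fell (1652 ± 172 to 1176 ± 34.1, adjusted p = 0.00169, and 2744 ± 127 to 2135 ± 97.7, adjusted p = 0.00128). Their relative Phc3 rose from 444 ± 12.2 to 540 ± 27.6 (adjusted p = 0.0137), and Cbx6, another chromobox gene, fell from 1057 ± 54.8 to 867 ± 47.7 (adjusted p = 0.00906).

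**Figure D2:**
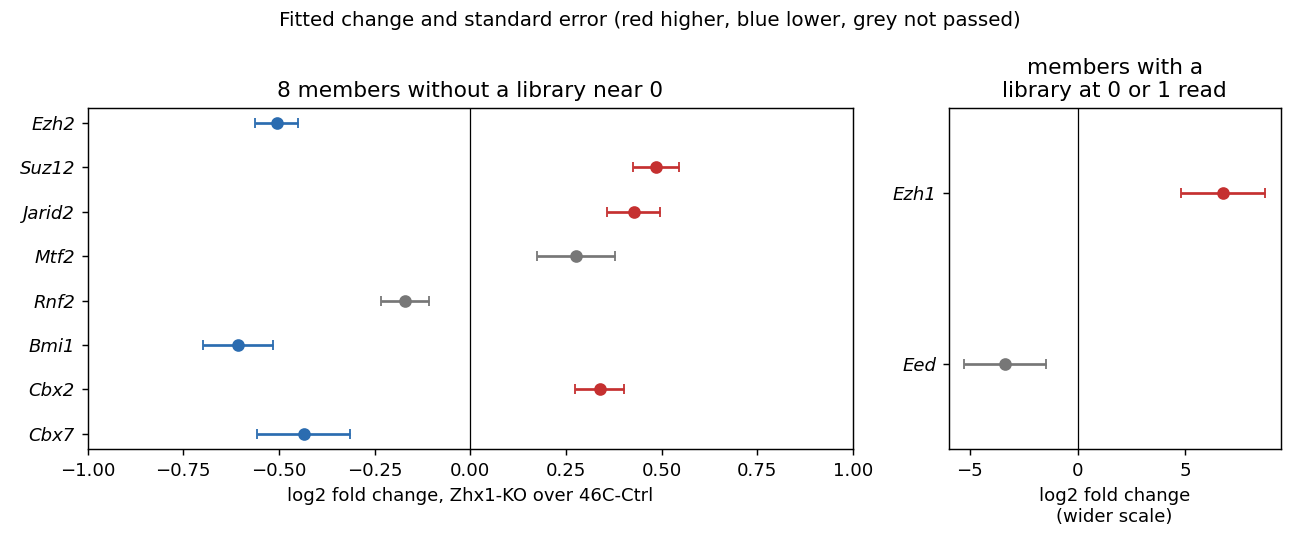
Fitted log2 fold change, Zhx1-KO over 46C-Ctrl, on log2(normalized count + 1), with its standard error (3 libraries per group). Red genes were higher, blue lower and grey did not pass; the right panel has a wider scale for Ezh1 (6.76) and Eed (-3.36), whose bars reflect libraries at 0 or 1 read, while the other 8 genes lie between -0.61 and 0.48.

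Alternative subunits were compared within each library as a log2 ratio of normalized count + 1. The ratio of Cbx2 to Cbx7 counts was 9.60, 8.89 and 8.85 in 46C-Ctrl and 14.4, 18.2 and 14.5 in Zhx1-KO. On the log2 scale this was 3.18 ± 0.07 against 3.95 ± 0.19 (SD, n = 3), a difference of 0.77, with an exact two-sided permutation p = 0.1. Each library labelled Zhx1-KO therefore had more Cbx2 per Cbx7 than each control. Cbx2 lies on chromosome 11, where most genes were higher, and with each gene set against the median of its chromosome (an alternative chosen after seeing the data, with no test) the difference was 0.31.

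The ratio of Bmi1 to Pcgf2 counts was 1.05, 1.17 and 0.987 in 46C-Ctrl and 0.681, 0.655 and 0.598 in Zhx1-KO. Its log2 mean was 0.09 ± 0.13 against -0.63 ± 0.10, a difference of -0.73 (exact permutation p = 0.1, n = 3). Pcgf2 too lies on chromosome 11, and against the chromosome medians the difference was -0.30. The ratio of Ezh1 to Ezh2 was 1.34, 1.01 and 1.16 in Zhx1-KO and 0.000801, 0.309 and 0 in 46C-Ctrl, with a difference of 7.26 on the log2 scale (exact permutation p = 0.1, n = 3), which rests on the 2 controls with almost no Ezh1 reads. For Jarid2 over Mtf2 the groups overlapped, at 1.56, 1.23 and 1.35 in 46C-Ctrl and 1.66, 1.52 and 1.40 in Zhx1-KO (log2 difference 0.15, exact permutation p = 0.3, n = 3). A p of 0.1 is the smallest that these 4 comparisons could give, so no ratio could pass 0.05, also before adjustment. Between genes a ratio of counts also reflects transcript length, so it shows a shift between groups and not which of the pair was more abundant.

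Levels between genes were compared per kb of merged exon length. That length joins the exons of all annotated transcripts of a gene. It can exceed the length of the transcript expressed, so the order below is a rough guide. In 46C-Ctrl, Rnf2 (453 ± 28.3 normalized counts per kb), Cbx2 (428 ± 26.7) and Suz12 (367 ± 19.5) were the highest of the 10 genes. They were followed by Mtf2 (236 ± 33.8), Eed (204 ± 8.94), Jarid2 (188 ± 6.52), Ezh2 (177 ± 4.64) and Bmi1 (143 ± 14.8), with Cbx7 (30.9 ± 2.02) and Ezh1 (16.1 ± 27.8) last (SD, n = 3). Neighbours whose ranges of mean ± SD met were Rnf2 and Cbx2, Mtf2 and Eed, Jarid2 and Ezh2, and Cbx7 and Ezh1. In Zhx1-KO the order per kb was Cbx2 (541 ± 25.9), Suz12 (514 ± 25.6), Rnf2 (402 ± 17.5), Mtf2 (284 ± 14.8), Jarid2 (254 ± 21.6), Ezh1 (130.3 ± 15.5), Ezh2 (125 ± 3.99), Bmi1 (93.7 ± 0.280), Eed (83.9 ± 77.1) and Cbx7 (22.8 ± 1.96). There the pairs that met were Cbx2 and Suz12, Mtf2 and Jarid2, Ezh1 and Ezh2, Bmi1 and Eed, and Eed and Cbx7. By merged length (3.83 kb for Eed, 6.68 kb for Ezh2), Eed, the obligate partner of both enzymes, stood above Ezh2 in 46C-Ctrl. It had no settled place in Zhx1-KO. Before division by length the 46C-Ctrl means were 782 for Eed and 1182 for Ezh2, so their order depends on the length used.

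The calls were also set beside the chromosome of each gene. Ezh1, Suz12 and Cbx2 are the 3 members on chromosome 11, and all 3 were higher, against 1 of the 7 members elsewhere (Jarid2). On chromosome 11, 56.9% of the 1187 genes tested were higher, with a median log2 fold change of 0.42, while off it 23.0% were higher, with a median of -0.02. Suz12 (0.48) and Cbx2 (0.34) lay at percentiles 54.4 and 43.4 of their chromosome. Less the median of the chromosome, the log2 fold change was 0.06 for Suz12 and -0.08 for Cbx2, 6.34 for Ezh1, and 0.43 for Jarid2, whose chromosome had a median near 0. The rises of Suz12 and Cbx2 were thus about as large as that of the typical chromosome 11 gene, and the part of the chromosome-wide shift in their calls was not tested. The genes that fell kept their sign after the same subtraction, at -0.38 for Ezh2, -0.60 for Bmi1 and -0.39 for Cbx7. Of the 10 tested pathway genes on chromosome 11, members included, 5 were higher, 1 was lower (Kdm6b) and 4 did not pass.

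**Figure D3:**
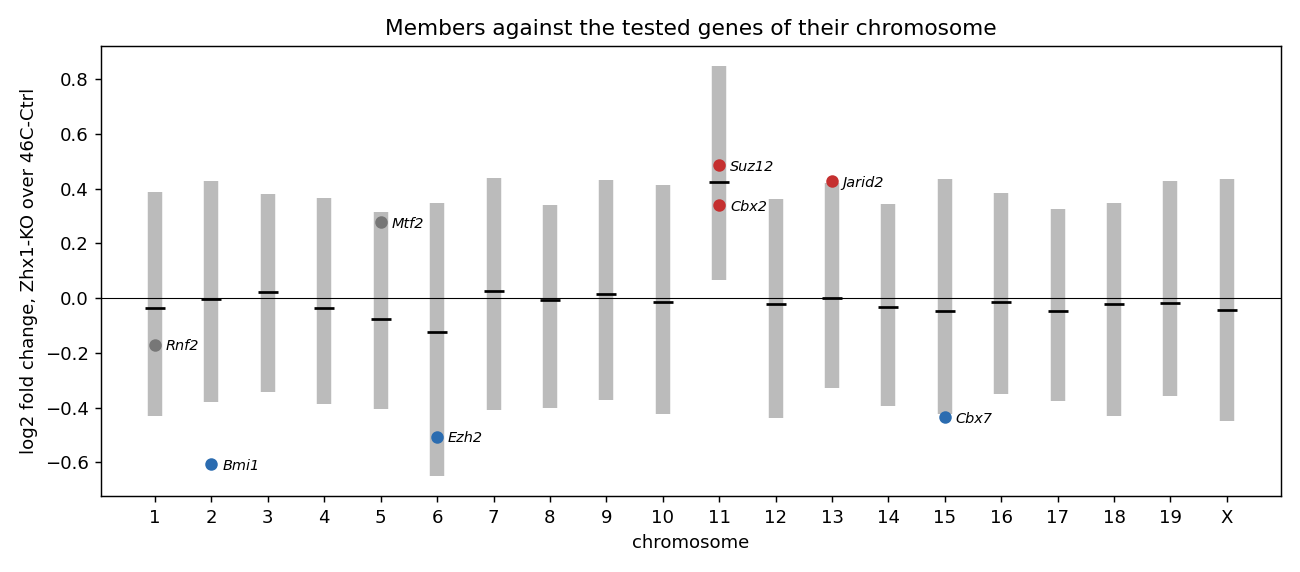
Log2 fold change, Zhx1-KO over 46C-Ctrl (vertical axis), of 8 Polycomb genes on their chromosomes, with the median (black dash) and the middle 50% of all tested genes of each chromosome (grey bar); Ezh1 and Eed lie off the scale and Y is not drawn. Red genes were higher, blue lower and grey did not pass, and Suz12 and Cbx2 sit on either side of the chromosome 11 median of 0.42.

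Outside the 10 genes, the rest of the Polycomb and opposing machinery was mostly lower or did not pass. Of 52 further tested genes in 7 lists (core and accessory PRC2, RING and PCGF, canonical and variant PRC1, the PR-DUB deubiquitinase, and histone H3 lysine 27 demethylases with trithorax methyltransferases), 6 were higher, 24 lower and 22 did not pass. Their median log2 fold change was -0.29, against 0.01 over all genes tested, where 26.4% were lower. With chromosome 11 left out, 4 were higher, 23 lower and 18 did not pass of 45.

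In variant PRC1 1 of 13 genes was higher and 6 were lower. Rybp, which stimulates the ligase in place of a Polycomb chromobox protein, had 2642 ± 174 normalized counts in 46C-Ctrl and 1844 ± 53.1 in Zhx1-KO (log2 fold change -0.52, adjusted p = 0.000271). Bcor, the corepressor of the Pcgf1 complex, had 868 ± 71.3 and 587 ± 112 (-0.58, adjusted p = 0.008), and Fbrs, of the Pcgf3 and Pcgf5 complexes, 469.6 ± 26.2 and 347 ± 31.7 (-0.44, adjusted p = 0.00563). Dcaf7, an adaptor on chromosome 11, was the gene that rose, from 2534 ± 61.7 to 3985 ± 59.1 (0.65, adjusted p = 1.78e-05).

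PR-DUB removes the ubiquitin that PRC1 adds, and 2 of its 8 genes were higher and 3 lower. Foxk1, a forkhead factor that binds the complex, fell from 2655 ± 203 to 1144 ± 59.9 (log2 fold change -1.21, adjusted p = 9.97e-06), while its paralog Foxk2, on chromosome 11, rose from 2223 ± 37.9 to 2582 ± 68.8 (0.22, adjusted p = 0.00553). Mbd6 fell from 715 ± 56.5 to 418 ± 67.1 (-0.78, adjusted p = 0.00116) and Asxl2, a cofactor of the deubiquitinase, from 689.8 ± 16.0 to 448 ± 83.1 (-0.64, adjusted p = 0.00516).

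Demethylases and trithorax genes act against Polycomb silencing, and 7 of 9 were lower, 6 of 8 with the Y-linked Uty left out, while 2 did not pass. Kmt2a, a histone H3 lysine 4 methyltransferase, fell from 2888 ± 204 to 1711 ± 169.8 (log2 fold change -0.76, adjusted p = 0.000205), and Men1, its partner menin, from 1031 ± 75.9 to 664 ± 30.4 (-0.63, adjusted p = 0.000285). Kdm6b, which removes the lysine 27 mark, fell from 3740 ± 321 to 2545 ± 170.2 (-0.55, adjusted p = 0.00071), against the direction of most genes of chromosome 11. Uty, a Y-linked relative of Kdm6a, was at 267, 273 and 241 normalized counts in 46C-Ctrl and at 0 in each Zhx1-KO library, which allows up to 3 reads per library, while Kdm6a on the X chromosome did not pass (515 ± 27.4 and 563 ± 19.1, adjusted p = 0.173). Of 11 tested genes on the Y chromosome 6 were lower and 5 did not pass, with a median log2 fold change of -0.72.

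**Figure D4:**
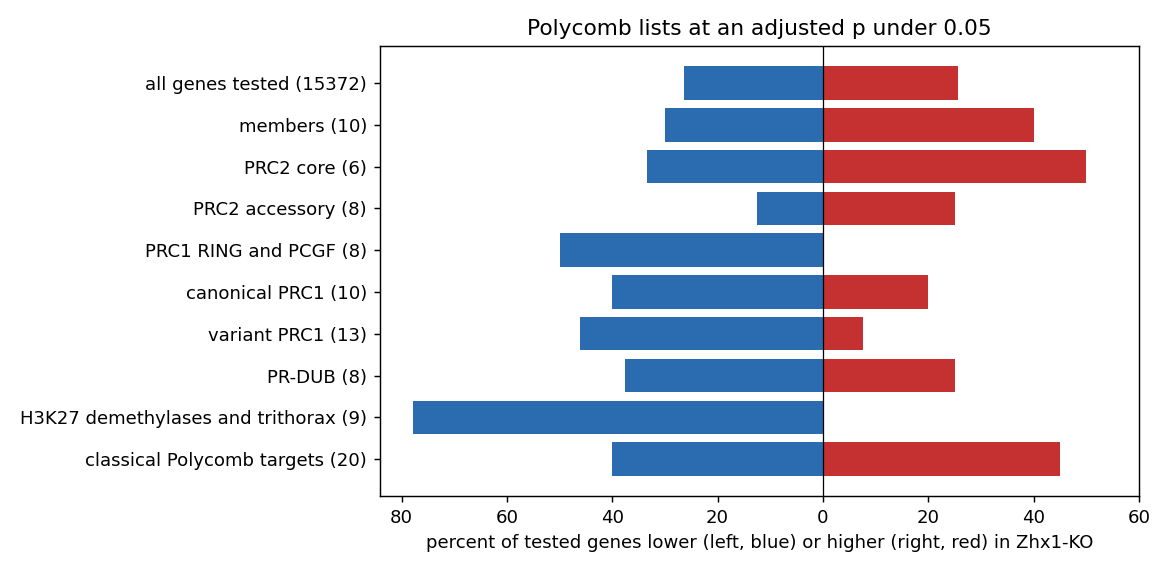
Percent of tested genes higher (red, right) or lower (blue, left) in Zhx1-KO at an adjusted p under 0.05, for all genes tested, the 10 Polycomb genes and each list, with the number tested in brackets. The demethylase and trithorax list has 7 of 9 genes lower, the RING and PCGF list 4 of 8, and all genes tested 26.4%.

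Classical Polycomb targets are lineage regulators that carry the lysine 27 mark in ESCs. Of 24 listed, 20 were tested, and 9 were higher and 8 lower with 3 that did not pass. Those named here moved further than 8 of the 10 members. Msx2, a homeobox gene of mesenchyme and limb, fell from 1506 ± 65.2 to 89.4 ± 3.42 normalized counts (log2 fold change -4.06, adjusted p = 1.21e-07), and the cardiac and endodermal factors Gata4 and Gata6 fell from 1609 ± 237 to 95.1 ± 19 (-4.07, adjusted p = 1.78e-06) and from 861 ± 58.1 to 175 ± 15.5 (-2.30, adjusted p = 2.09e-06). These counts by direction depend on the filter, since some targets passed it only through the group where they were high. Examples are Pax6 (0 in each 46C-Ctrl library, 24.4 ± 8.91 in Zhx1-KO) and Hoxd9 (51.8 ± 6.30 and 1.64 ± 0.658). With a filter at a mean of 50, 4 were higher and 6 lower. Histone marks were not measured in these libraries, and whether Polycomb acted on any of these genes was not tested.

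Markers of other cell types moved between the same groups. Pluripotency genes summed to 4865 to 4917 normalized counts in 46C-Ctrl and 3029 to 3191 in Zhx1-KO, with 3 of 5 tested lower and 1 higher. Pou5f1, the pluripotency factor Oct4, fell from 3524 ± 31.1 to 1024 ± 41.4 and Sox2, which neural cells also express, rose from 589 ± 25.7 to 1985 ± 12.0. Of 5 tested neural genes 4 were higher and 1 lower (sums of 2646 to 3151 in 46C-Ctrl, 2375 to 2543 in Zhx1-KO). Most of these sums was Nes, the gene that was lower (2804 ± 278 and 1652 ± 93.7). Among those that rose were Sox1 at 17.0 ± 1.77 and 240.4 ± 20.9 and the neuronal tubulin Tubb3 at 136 ± 4.55 and 455 ± 44.3. Sox1 carries the reporter of the line, and Pax6 and Neurog2 in the neural list and Esrrb and Zfp42 in the pluripotency list were at 0 in at least 1 library.

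Endoderm genes were lower in 5 of 6, with sums of 2471 to 2616 and 895 to 958, and Ttr and Apob, liver and yolk sac transport proteins, were at 681 ± 19.6 and 513 ± 28.4 in 46C-Ctrl and 21.5 ± 7.05 and 36.6 ± 6.25 in Zhx1-KO. Of 6 endothelial genes 4 were higher and 1 lower (sums of 2861 to 3089 and 4278 to 4482), with Cdh5, the cadherin of vessel walls, at 99.9 ± 7.16 and 875 ± 89.5 and Flt1, a growth factor receptor, at 2051 ± 90.0 and 411 ± 16.7. Of 12 proliferation genes 2 were higher, 3 lower and 7 did not pass (sums of 47838 to 48682 and 55369 to 57917). Top2a, a chromosome 11 gene, was at 11568 ± 348 and 19248 ± 1054, and Tyms at 950.1 ± 61.2 and 609 ± 55.5. Most of the rise in the proliferation sums was Top2a. The part of these cell type markers in the changes of the Polycomb genes was not tested.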

How the data were processed

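PolyA RNA was sequenced from 46C-Ctrl and Zhx1-KO cells, 3 libraries each. By the study's methods, reads were trimmed with cutadapt 1.18 and mapped to GRCm38 with HISAT2 2.1.0 using strand, and expression was estimated as FPKM with StringTie 1.3.4d. FPKM values were not used here. Cufflinks and DESeq2 are named too in the submitters' processing notes. The signal deposited by the authors is instead a count per gene scaled by a single factor in each library, with replicates kept apart. The program that counted reads is not stated. All values are whole multiples of their library's step (0.880 to 1.05) within 0.001 steps, so whole reads were recovered. For Zhx1-KO replicates 1 and 2, whose steps of 1.01 lie near 1, this rests on the decimals alone.

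Genes with a mean of at least 10 were tested with limma 3.58.1 (R 4.3.3) on log2(value + 1), using its intensity trend, no covariate beside group and the Benjamini-Hochberg correction. Fold changes on this scale understate changes of low genes. The steps were checked on simulated data. The members, lists and tests were chosen with earlier results of these data known. Named are the members, Zhx1, up to 4 further called genes per Polycomb list and up to 2 per marker list with the smallest adjusted p. A gene that the rule selects is not reported here. Outside the rule, Ring1, Pcgf2, Kdm6a, Nes, Pax6, Hoxd9 and Hes5 were named after their values were seen. Alternatives changed the pseudocount, filter, scaling, trend, replicate block or libraries. Another 5 were chosen after seeing the data: subunit ratios against chromosome medians, limma with robust settings, and on whole reads edgeR 4.0.16, edgeR with robust settings and DESeq2 1.42.0. Positions and exon lengths are from GENCODE M21, not the authors' release M19, on the same build. Intervals and limits on reads cover counting error only.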

Additional observations from a re-analysis of the deposited data

How the results depend on the processing

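Over 18 other settings, 3 to 5 of the 10 Polycomb genes were higher (4 as reported) and 2 to 4 lower (3 as reported). Ezh2, Suz12, Jarid2, Bmi1 and Cbx2 passed in all 18 with the same sign. Ezh1 passed in 9, Mtf2 in 9, Cbx7 in 16, and Eed and Rnf2 in 1 each. Besides the settings given with Ezh1 above, its call ended with limma without trend (adjusted p = 0.0591) and with robust limma (0.0973). Less the median of its chromosome, Cbx2 changed sign to -0.0831. Among the classical targets 4 instead of 9 were higher with a filter at a mean of 50, where fewer genes enter. Of the other pathway genes, 4 to 6 were higher and 21 to 25 lower. The replicate numbers do not pair the libraries (correlations of deviations between libraries of the same number 0.00419, -0.069 and 0.000587). With the replicate block, 4 members were higher and 3 lower, and 3625 genes were higher and 3749 lower of all tested. The scalings moved the median of all genes by less than 0.1 on the log2 scale, but some members moved further. With quantile normalization Suz12 went from 0.48 to 0.59 and Ezh2 from -0.51 to -0.395. Mtf2 went from 0.28 to 0.38 and passed (limma, adjusted p = 0.0209). Cbx7 (-0.44 to -0.51), Ezh1 (6.76 to 6.75) and Eed (-3.36 to -3.38) moved down instead. Over other pseudocounts and single libraries left out, the log2 difference of Cbx2 over Cbx7 ran from 0.66 to 0.83, of Bmi1 over Pcgf2 from -0.78 to -0.66, of Ezh1 over Ezh2 from 5.69 to 9.95 and of Jarid2 over Mtf2 from 0.07 to 0.24. With each gene set against its chromosome's median, chosen after seeing the data, the first was 0.307 and the second -0.302, since Cbx2 and Pcgf2 lie on chromosome 11. Besides Ezh1 and Eed, Cbx7 (133 to 215 normalized counts) rests on the fewest reads among the members, and its call was lost in 2 settings.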
